A study of Arabidopsis thaliana with 6 samples.

Results

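The comparison set seedlings that overexpress IBH1 against wild-type seedlings of Arabidopsis thaliana and covered every gene that the authors listed as different between them. Members were all 1547 genes of the authors' deposited table for this pair of groups, and they were ranked by the log2 ratio of the IBH1-Ox mean to the wild-type mean among the 1351 genes whose larger mean was at least 50 normalized counts. The other 196 listed genes had lower means and are named only where they belong to a described process. The deposited values stop at an adjusted p of 0.0492 and a fold of 1.5, which shows that the table was reduced before deposit, so a gene that is missing from it was not shown to be equal in the groups. The account below leaves aside small auxin-up RNAs, xyloglucan endotransglucosylase/hydrolases, expansins and clock genes.

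The series holds 6 RNA-seq libraries in 3 groups of 2, all from whole seedlings of the Col-0 ecotype that were 5 days old and had grown on half-strength MS medium in constant light. The wild type (Col) carried no transgene named in the labels, IBH1-Ox carried 35S:IBH1-myc, and PRE1-Ox/IBH1-Ox, the double line, carried 35S:IBH1-myc together with 35S:PRE1-YFP. The 35S promoter is active in most cell types, but which cells gained IBH1 cannot be read from whole seedlings. The labels do not say how many independent transgenic lines were used. Nothing in the labels says that the libraries of a group came from separate cultures, and a p-value therefore reflects the spread among these samples only, which may be technical.

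IBH1 is an atypical helix-loop-helix protein that lacks a DNA-binding basic region. It pairs with DNA-binding bHLH activators of cell elongation and keeps them from their targets, and small proteins of the PRE family release them by binding IBH1. bHLH proteins also govern processes other than elongation in seedlings, among them iron uptake in the root epidermis, root hair formation and the response to jasmonate.

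The labels were first checked against the transgene. The normalized count of IBH1 (AT2G43060) was 179 and 138 in wild type and 11790.2 and 12997 in IBH1-Ox, a difference of 6.29 ± 0.20 on the log2 scale (SE, n = 2 libraries per group). PRE1 (AT5G39860), which no transgene drives in IBH1-Ox, was at 66.7 and 56.4 in wild type and at 140.2 and 151 in IBH1-Ox. Seedling identity was checked in the complete table of the second comparison. Markers of green tissue reached means of 6187 to 271558 normalized counts in IBH1-Ox and root markers 33.2 to 77232. Seed markers had means of 63.7 to 605. The flower identity genes ranged from 0 for AP1 to 35.7 for SEP3, which lay above the lowest root marker, PLT1, and their means summed to 47.7. None of the 4 green tissue, 5 root, 5 flower and 3 seed markers was listed as different from wild type.

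Over the listed genes, the only ones that could be read back for wild type, the wild-type libraries held 1151302 and 783116 reads and those of IBH1-Ox 776059 and 674892. Over all genes of the second table the IBH1-Ox libraries held 13978714 and 12239834 reads. Among genes with at least 200 reads, log2 ratios of the deeper to the shallower library had an SD of 0.19 for wild type and 0.186 for IBH1-Ox. A library is called deeper or shallower here by its size factor, because the deposited means do not tie it to a replicate number, and per-library values are always given in that order. Precision beyond these pairs of libraries cannot be had, and intervals on reads cover counting error only.

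The whole table held 797 genes that rose and 750 that fell in IBH1-Ox, which are 3.22% and 3.03% of the 24779 genes whose test is implied by the authors' p-values. Of the 1351 genes with a mean of at least 50, 697 rose and 654 fell. These are 2.81% and 2.64% of the genes tested, and they are the shares against which the counts of gene groups below are to be read. The median log2 ratio was 0.86 among genes that rose and -0.93 among genes that fell. Most differences were moderate: 246 genes that rose and 296 that fell differed at least 2-fold, 50 and 70 at least 4-fold, and 13 and 31 at least 16-fold. The groups did not overlap in any of the 1348 genes whose libraries could be read back (5.45% of all genes tested were kept in either direction). The table was selected on such differences, so this count supports nothing, and an exact permutation test of a single gene with 2 against 2 libraries, two-sided, cannot go below p = 0.333. In RNA from whole seedlings, fewer cells of a type and less RNA per cell cannot be told apart, and this holds for every result below.

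**Figure D1:**
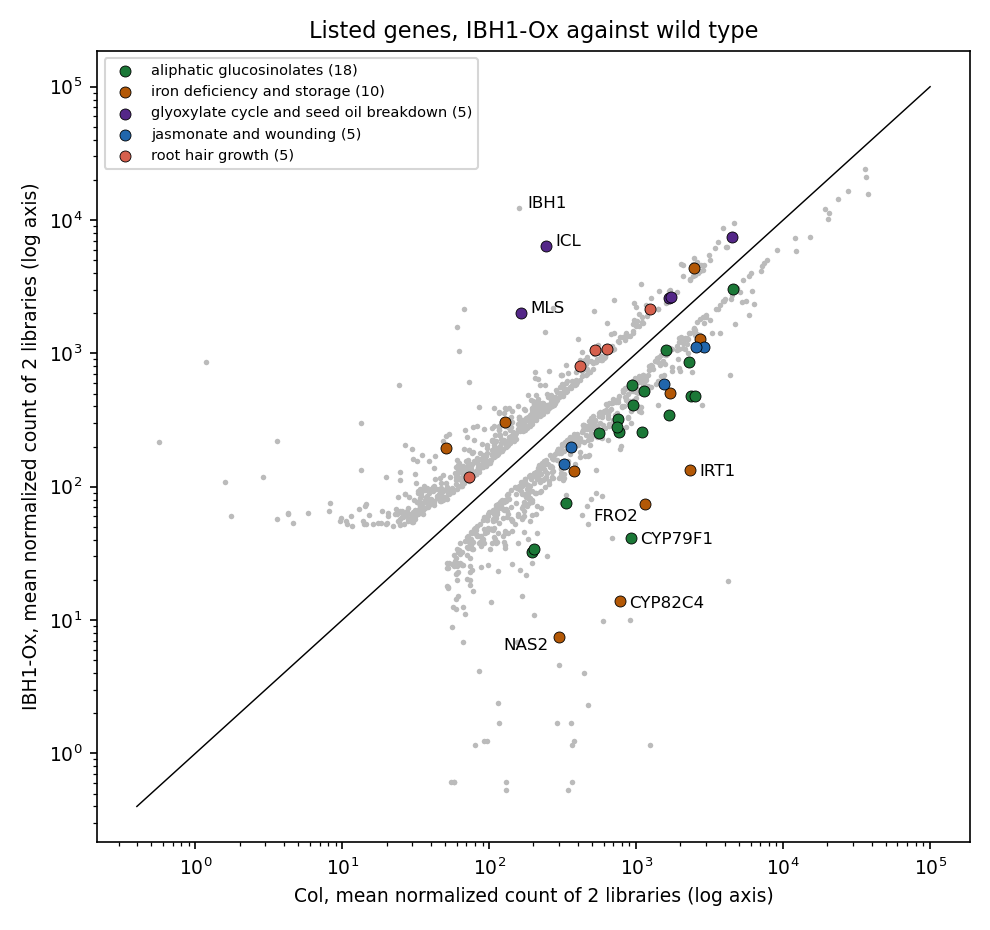
Mean normalized count of each of the 1351 listed genes in wild type (horizontal) and IBH1-Ox (vertical), both on log axes, with the line of equal level and the members of 5 gene lists in colour. All 18 coloured glucosinolate genes lie below the line. The glyoxylate cycle enzymes ICL and MLS lie far above the line, though lower than IBH1. The empty band along the line is the fold limit of the deposited table.

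Gene lists of 29 processes, with 527 genes in all, were set against the table. Of these, 6 lists had no listed member with a mean of at least 50: salicylate response, suberin, secondary wall, heat shock, cell cycle and floral identity. The largest share of members that fell was found among aliphatic glucosinolate genes, with 18 of 21, and the largest share that rose among glyoxylate cycle and seed oil genes, with 5 of 16. Iron genes moved in both directions, with 7 of 32 lower and 3 higher.

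**Figure D2:**
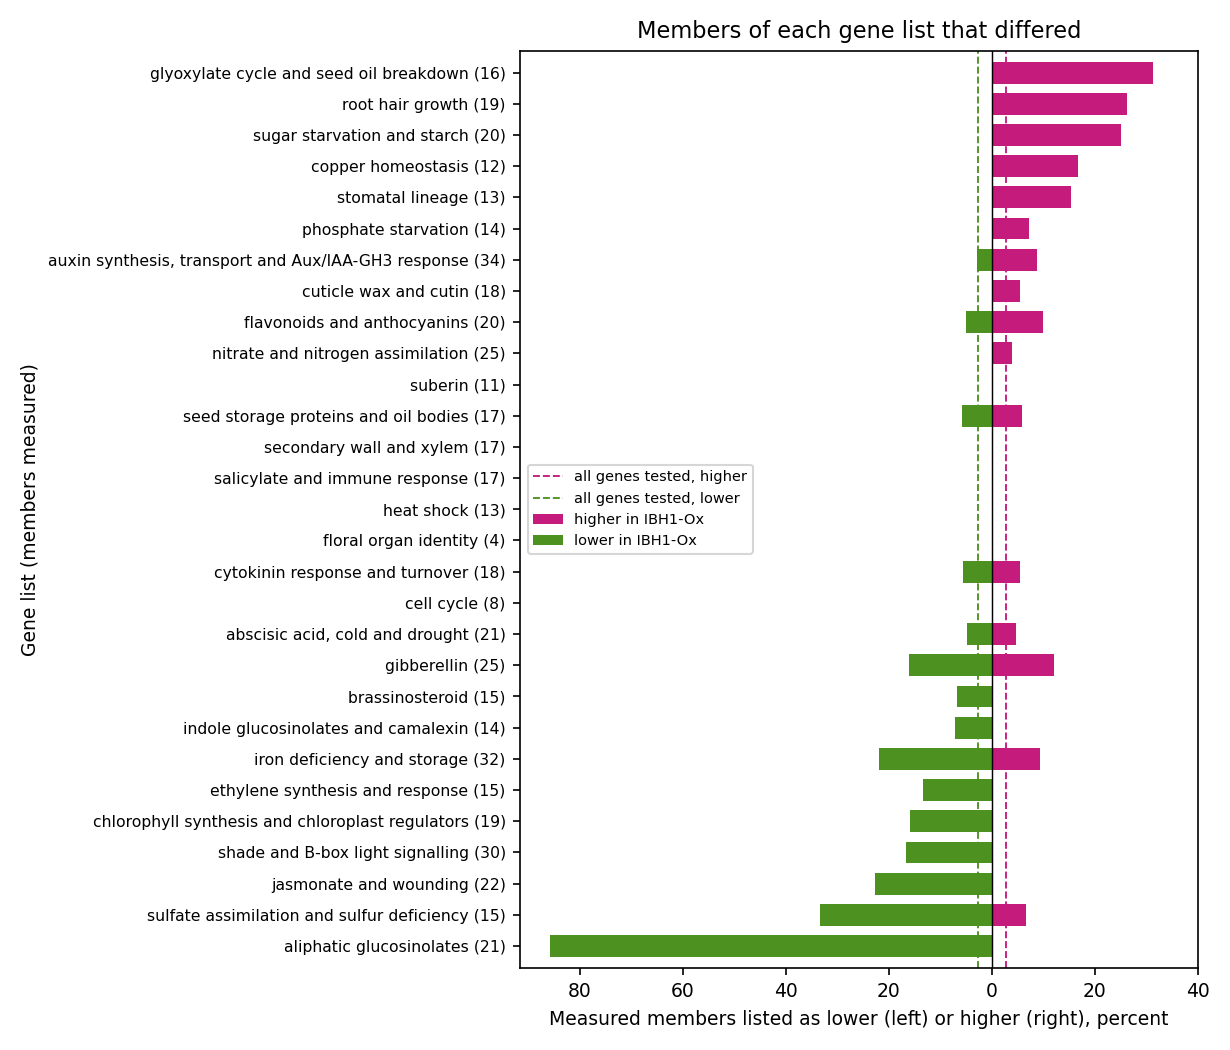
Share of the measured members of each gene list that was listed as higher (right of 0) or lower (left of 0) in IBH1-Ox, in percent, with dashed lines at the shares over all genes tested (2.81% and 2.64%). Aliphatic glucosinolates reach 85.7% on the lower side, and the glyoxylate list leads the higher side at 31.2%.

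Aliphatic glucosinolates are sulfur-rich defence compounds that Arabidopsis makes from methionine. The amino acid is lengthened in the chloroplast, turned into the core structure by cytochrome P450 and later enzymes, and oxidised on its side chain. MYB28, MYB29 and MYB76 are the transcription factors that switch the pathway on. Genes of every step fell in IBH1-Ox: both MYB genes with a mean of at least 50, 8 of 9 chain elongation genes, 6 of 7 core genes and both side-chain oxidation genes. Their median log2 ratios were -1.83, -1.48, -1.22 and -2.35 in that order. No member of the list rose. IMD3, an isopropylmalate dehydrogenase, and AT2G31790, a glucosyltransferase gene, were the members that the table did not list.

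Among the regulators, MYB28 (AT5G61420) stood at 1127 and 1116 normalized counts in wild type and at 522 and 528 in IBH1-Ox. MYB29 (AT5G07690) stood at 215 and 186 against 31.0 and 36.9. The libraries of a group lay close together for both genes, and the groups were well apart: the log2 ratio was -1.09 ± 0.011 for MYB28 and -2.56 ± 0.16 for MYB29 (SE, n = 2 per group). MYB76 (AT5G07700) had 59 reads over the wild-type libraries and 2 over those of IBH1-Ox. The normalized ratio was 24.0, and its 95% counting interval ran from 6.36 to 203. Its means were under 50.

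Chain elongation begins with the aminotransferase BCAT4 and continues with repeated rounds of condensation, isomerisation and oxidation. BCAT4 (AT3G19710) fell from 1155 and 1028 normalized counts to 305 and 208. MAM1 (AT5G23010), the condensing enzyme for short chains, fell from 2548 and 2469.7 to 543 and 409. The isomerase subunit IPMI2 (AT2G43100) fell from 1715 and 1619.8 to 354 and 335. In each of these genes both IBH1-Ox libraries were far below both wild-type libraries. MAM3 (AT5G23020), the condensing enzyme that also makes long chains, differed less: it stood at 867 and 1010.0 in wild type and at 631 and 522 in IBH1-Ox, a log2 ratio of -0.70 ± 0.18. The large isomerase subunit IIL1 (AT4G13430), which also serves leucine synthesis, had the smallest difference of the list (-0.59 ± 0.12).

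CYP79F1 (AT1G16410), the P450 enzyme that starts core synthesis from chain-elongated methionine, had the largest difference among list members with a mean of at least 50. It stood at 992 and 848 normalized counts in wild type and at 50.3 and 32.0 in IBH1-Ox, a log2 ratio of -4.48 ± 0.35. Its tandem neighbour CYP79F2 (AT1G16400), which prefers long-chain substrates, stood at 566 and 546 against 274 and 231 (-1.14 ± 0.12). The genes are close copies of each other, and reads that fit both may have been assigned to either or to none. CYP83A1 (AT4G13770), which acts on the products of both, fell from 2463 and 2246 to 551 and 409.8. SUR1 (AT2G20610), a C-S lyase shared with the indole branch, showed a log2 ratio of only -0.61 ± 0.031. Adjusted p-values in the authors' deposited table ranged from 2.14e-49 for MAM1 to 0.00702 for MAM3 over the list members named here.

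**Figure D3:**
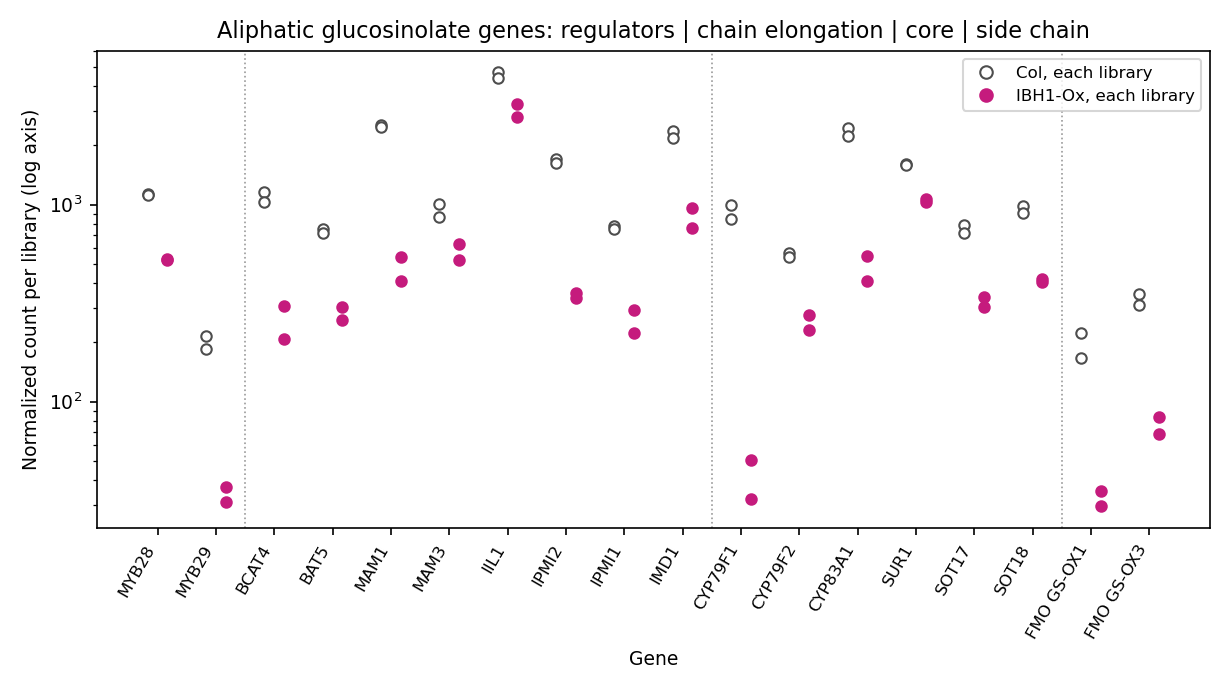
Normalized count in each wild-type library (open circles) and each IBH1-Ox library (filled circles) on a log axis for the 18 aliphatic glucosinolate genes that fell, ordered by pathway step with dotted lines between steps. In every gene both IBH1-Ox libraries lie below both wild-type libraries, and the gap is widest at CYP79F1. The groups were apart in all 1348 kept genes that were read back, so this separation supports nothing.

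Neighbouring pathways were touched less. Of 14 indole glucosinolate and camalexin genes, PAD3 (AT3G26830), the last enzyme of camalexin synthesis, was the member that fell (-0.78 ± 0.21), and none rose. Among 15 genes of sulfate assimilation and sulfur deficiency 5 fell and 1 rose. The sulfate transporter SULTR2;1 (AT5G10180), which acts in vascular tissue, fell from 1608 and 1498 normalized counts to 679.8 and 709. APR1, APR2 and APS3, enzymes that activate and reduce sulfate, had log2 ratios of -0.81, -0.63 and -0.77, and LSU1, a marker of sulfur deficiency, had -1.0. The uptake transporter SULTR1;1 (AT4G08620) rose from 27.0 and 33.8 to 66.4 and 62.8.

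In the second comparison, the double line against IBH1-Ox, 18 of the 21 list members were called higher and none lower. That comparison uses the same IBH1-Ox libraries, so the values are given side by side and are no separate evidence. CYP79F1 reached 361 and 372 normalized counts in the double line, on the scale of that table, and CYP83A1 reached 1199.5 and 1109.9. BCAT4 stayed at 251 and 237 (adjusted p = 0.98 in the authors' deposited table). Among all genes tested there, 12.7% were called higher and 9.78% lower at an adjusted p below 0.05.

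The sequence just before the gene start was read for the glucosinolate genes because they fell together. The motif searched was CACGTG, the G-box that many bHLH and bZIP proteins bind, which reads the same on both strands. It lay within 250 bases before to 50 after the RefSeq gene start in 5 of the 18 genes that fell (27.8%), and in 9.1% of 16992 promoters of genes with a mean of at least 50. Among all genes that fell the share was 9.29% and among all that rose 9.16%. The wider motif CANNTG, which contains CACGTG, lay in 66.7% of the 18 promoters, in 67.0% of those of all genes that fell and in 62.3% of all. CACGTG lay in 1 of 5 promoters of jasmonate genes that fell, and in none of 7 iron genes that fell, 5 glyoxylate list genes that rose and 5 root hair genes that rose. A match describes the letters and shows no binding. The following 3 promoters are printed because CACGTG lies before the gene start, 5′ to 3′ on the gene's strand, with the motif in capitals; the sequence is from the RefSeq TAIR10.1 assembly and ends at the base before the gene start. The motif begins 43 bases before the start in CYP83A1, 50 in SUR1 and 38 in IIL1. The regions are chr4:7992430-7992679, chr2:8880441-8880690 and chr4:7807985-7808234, all on the minus strand.
CYP83A1: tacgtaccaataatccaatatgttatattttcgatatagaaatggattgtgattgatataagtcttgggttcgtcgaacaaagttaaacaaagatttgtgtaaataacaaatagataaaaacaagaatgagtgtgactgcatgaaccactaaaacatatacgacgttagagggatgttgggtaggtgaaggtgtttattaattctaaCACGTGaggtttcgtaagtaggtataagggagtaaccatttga
SUR1: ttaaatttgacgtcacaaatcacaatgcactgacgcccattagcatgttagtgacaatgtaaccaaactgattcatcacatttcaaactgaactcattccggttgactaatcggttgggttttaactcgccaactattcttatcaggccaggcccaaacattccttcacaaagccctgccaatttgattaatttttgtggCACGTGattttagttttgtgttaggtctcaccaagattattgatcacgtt
IIL1: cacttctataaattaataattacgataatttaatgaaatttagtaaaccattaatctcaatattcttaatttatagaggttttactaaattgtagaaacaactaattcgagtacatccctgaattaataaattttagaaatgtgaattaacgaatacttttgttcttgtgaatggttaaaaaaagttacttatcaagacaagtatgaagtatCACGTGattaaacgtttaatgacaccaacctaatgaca
The log2 ratios of these genes were -2.29, -0.61 and -0.59. In the other genes with CACGTG it lay after the gene start, from base 30 in FMO GS-OX3 (-2.12) and base 6 in BAT5 (-1.39). Genes with the motif in this window thus included the smallest differences of the list as well as larger ones. CYP79F1 and both MYB genes that fell had no CACGTG in the window.

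Iron uptake was the other process with large decreases. In iron-poor soil Arabidopsis roots reduce ferric iron at the surface with FRO2, import it with IRT1, and secrete coumarins that mobilise it. These genes are switched on by the bHLH factor FIT together with bHLH factors of subgroup Ib, which respond to the iron status of the plant. IRT1 (AT4G19690) stood at 2321 and 2329.9 normalized counts in wild type and at 177 and 91.1 in IBH1-Ox (-4.12 ± 0.48). FRO2 (AT1G01580) stood at 1183 and 1107 against 95.3 and 52.9 (-3.95 ± 0.43). The P450 gene CYP82C4 (AT4G31940), which makes the coumarin sideretin, stood at 837 and 708 against 21.4 and 6.15 (-5.81 ± 0.91). Groups did not overlap in any of these genes, which held for all 1348 kept genes that were read back and so supports nothing.

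The nicotianamine synthases, whose product carries iron within the plant, fell as well. NAS2 (AT5G56080) went from 340.5 and 256 normalized counts to 7.49 and 7.38, and NAS1 (AT5G04950) from 2912 and 2499 to 1224 and 1335. MTPA2 (AT3G58810), a vacuolar zinc transporter that is induced with iron uptake, had a log2 ratio of -1.52 ± 0.20. The ferritin gene FER1 (AT5G01600) encodes the iron storage protein of plastids and is normally high when iron is plentiful. It fell from 2073 and 1299.6 to 496 and 513, so storage and uptake genes fell in the same libraries. The wild-type libraries differed 1.6-fold in FER1.

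Several regulators of the iron response went the other way. BHLH101 (AT5G04150) rose from 49.2 and 53.0 normalized counts to 269 and 122, and BHLH100 (AT2G41240) from 128 and 129.6 to 395 and 214. Both belong to subgroup Ib and rise in iron-deficient plants. BTS (AT3G18290), an E3 ligase that restrains the iron deficiency response, rose from 2397 and 2577 to 4760.4 and 4055. FIT, IRT2, BHLH38 and BHLH39 were not listed. MYB10 (AT3G12820), a regulator that acts under iron deficiency, fell by 1.24 on the log2 scale with means under 50.

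The IBH1-Ox libraries differed from each other by more than 1.5 times in 5 of the 10 listed iron genes with a mean of at least 50. The deeper library was higher 1.94-fold in IRT1, 1.8-fold in FRO2, 2.21-fold in BHLH101 and 1.84-fold in BHLH100, and 3.48-fold in CYP82C4. It was 1.31-fold higher in MTPA2 and 1.17-fold in BTS, while the libraries lay close together in NAS2 (1.01), FER1 (0.966) and NAS1 (0.916). Among the 1205 listed genes with an IBH1-Ox mean of at least 50, 14 were more than 1.5-fold higher in the deeper library, so IRT1, FRO2, BHLH101 and BHLH100 made up 4 of 14. Without the deeper IBH1-Ox library the log2 ratio of AT4G31940 (CYP82C4) was -6.97, and without the shallower one it was -5.17. The log2 ratio of AT5G04150 (BHLH101) was 1.25 without the deeper library. In the authors' deposited table the adjusted p was 8.51e-35 for IRT1, 4.3e-34 for FRO2 and 6.33e-37 for CYP82C4, but 0.00889 for BHLH101 and 0.0183 for BHLH100. In the double line IRT1 stood at 1621 and 1606, FRO2 at 852 and 813, CYP82C4 at 508 and 533 and NAS2 at 123 and 135 on the scale of the second table, all higher than in IBH1-Ox. BHLH100 was higher there too, at 1034 and 1114. FER1 stood at 444 and 459 in IBH1-Ox and at 650.3 and 700.5 in the double line on that scale, a log2 ratio of 0.58 that was not called (adjusted p = 0.322 in the authors' deposited table).

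Copper genes moved to a smaller extent. Of 12 genes of copper homeostasis 2 rose and none fell. FRO4 (AT5G23980), a cupric reductase, rose from 204 and 201 normalized counts to 394 and 434, and its neighbour FRO5 (AT5G23990) from 9.52 and 9.02 to 40.7 and 39.4 with means under 50. The copper importer COPT2 (AT3G46900) rose from 296 and 264 to 431 and 517. FRO4 and FRO5 lie side by side and are alike in sequence, so their reads may be shared. In the double line FRO4 was at 22.1 and 9.39 and FRO5 at 0 in both libraries.

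**Figure D4:**
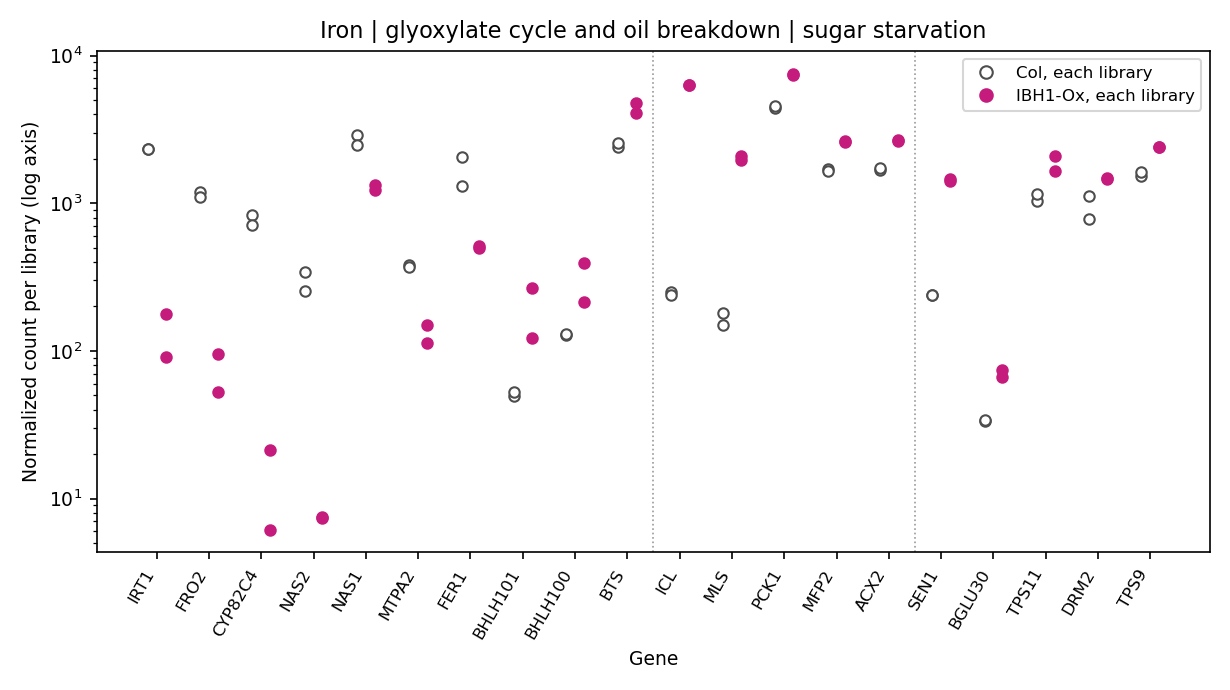
Normalized count in each wild-type library (open circles) and each IBH1-Ox library (filled circles) on a log axis for the listed genes of iron homeostasis, of the glyoxylate cycle and seed oil breakdown, and of sugar starvation, separated by dotted lines. Iron uptake genes lie lower in IBH1-Ox with the libraries apart, whereas ICL, MLS and SEN1 lie higher with the libraries close together.

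Genes that seedlings use to live on stored oil rose. The glyoxylate cycle turns the acetyl-CoA of fatty acid breakdown into sugar precursors while a seedling depends on its seed reserves, and it is normally shut down as cotyledons turn green. Its enzymes are isocitrate lyase and malate synthase. ICL (AT3G21720), the lyase, stood at 250.01 and 239 normalized counts in wild type and at 6348 and 6347 in IBH1-Ox, a log2 ratio of 4.70 ± 0.033. MLS (AT5G03860), the synthase, rose from 149 and 180.3 to 2091 and 1948 (3.62 ± 0.15). The IBH1-Ox libraries agreed closely and lay far above the wild-type libraries in both genes. PCK1 (AT4G37870), which passes the carbon on to sugar synthesis, rose from 4389 and 4553 to 7345 and 7559. The peroxisomal β-oxidation enzymes MFP2 and ACX2 had log2 ratios of 0.64 ± 0.031 and 0.64 ± 0.025. The other 11 list members, among them the lipase SDP1, the thiolase PED1 and the transporter PXA1, were not listed. With a limit of 2-fold 2 members remained, ICL and MLS.

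Seed storage genes gave no common direction. PAP85 (AT3G22640), a vicilin-like storage protein gene, had 4 reads in wild type, 3.17 and 0 normalized counts, and 138 and 77.5 in IBH1-Ox. SESA2 (AT4G27150), a storage albumin, and OLEO4 (AT3G27660), an oil body protein, were higher with means under 50. OLEO2 (AT5G40420), another oil body protein, fell from 350.0 and 318 to 89.9 and 84.9. The other members of this list of 17, including the cruciferins and OLEO1, were not listed. In the double line ICL was at 1812 and 1412, MLS at 560.3 and 550.3 and PAP85 at 22.1 and 22.5 on the scale of the second table. ICL and MLS were called lower there than in IBH1-Ox. PAP85 was not called (adjusted p = 0.158 in the authors' deposited table).

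Markers of sugar starvation rose with them. SEN1 (AT4G35770), which darkness and low sugar induce, rose from 239 and 240.1 normalized counts to 1456 and 1425 (2.59 ± 0.016). BGLU30 (AT3G60140), also known as a dark-induced gene, rose from 33.3 and 33.8 to 66.4 and 73.8. TPS9 and TPS11, trehalose phosphate synthase-like genes that sugar represses, had log2 ratios of 0.60 ± 0.047 and 0.77 ± 0.19, and the dormancy-associated gene DRM2 had 0.64 ± 0.26. DIN11, another dark-induced gene, went the other way with means under 50. In all, 5 of 20 list members rose. At an adjusted p below 0.01 the count was 3, and without the deeper wild-type library 3 members kept a fold of at least 1.5. In the double line SEN1 was at 117 and 103 and TPS11 at 322 and 359.

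Among jasmonate genes 5 of 22 fell and none rose. Jasmonate is the wound hormone made from chloroplast lipids by lipoxygenase, allene oxide synthase and allene oxide cyclase in turn. LOX2 (AT3G45140) stood at 2871 and 2897 normalized counts in wild type and at 1191 and 1051 in IBH1-Ox. AOS (AT5G42650) stood at 2643 and 2494 against 1088 and 1157. AOC2 (AT3G25770) stood at 1524 and 1552 against 616 and 566, and AOC1 (AT3G25760) at 324 and 324 against 151 and 144. Each of these 3 enzyme steps thus had a listed member. AOC1 and AOC2 lie in tandem and are alike in sequence, so their reads may be shared. JAZ6, a repressor of the response, had a log2 ratio of -0.86 ± 0.14, and the response markers VSP1, VSP2 and PDF1.2 were not listed. LOX2 and AOS reached 5007 and 4821, and 3083 and 3014, in the double line on the scale of the second table.

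Some root hair genes rose. Root hairs are outgrowths of single epidermal cells, started and driven by bHLH factors and built with extensins and peroxidases. Of 19 genes of root hair growth 5 rose and none fell. RHS19 (AT5G67400), a peroxidase, rose from 565 and 479 normalized counts to 1133 and 1006. RHS13 (AT4G02270) rose from 458 and 373 to 849 and 752, and RSL2 (AT4G33880), a bHLH factor that drives hair elongation, from 80.2 and 65.4 to 112 and 123. LRX1 and PRP3, wall proteins of root hairs, had log2 ratios of 0.75 ± 0.085 and 0.81 ± 0.12. At an adjusted p below 0.01 the count was 3. RHD6, RSL4 and GL2 were not listed. Adjusted p-values in the authors' deposited table ran from 3.46e-05 for RHS19 to 0.0212 for RSL2.

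Other genes of root tissues, and peroxidase and glucosidase genes not tied to roots by their names, were among those that rose. Root genes did not share 1 direction: the iron uptake genes IRT1 and FRO2 fell, and none of 11 suberin genes was listed. The groups in this paragraph were taken from annotation names, some of them after values had been seen, so their counts only describe. Of 15 genes annotated as root hair specific 5 rose, RHS14 (AT4G22080) most, from 85.7 and 57.5 normalized counts to 157 and 160.0. RHS13 and RHS19, already counted above, are among the 5. Of 39 genes annotated as UPF0497 or Casparian strip membrane proteins 6 rose and none fell. CASP5 (AT5G15290), which helps to place the lignin barrier of the endodermis, rose from 95.2 and 122 to 374 and 399 (1.83 ± 0.18), while CASP4 had a log2 ratio of 0.91. Of 64 class III peroxidases 12 rose and 3 fell. BGLU45 and BGLU46, glucosidases of lignin precursors, had log2 ratios of 1.2 ± 0.10 and 0.99 ± 0.059. NAC015 (AT1G33280), a NAC factor of the maturing root cap, rose from 38.1 and 37.2 to 79.2 and 71.4. Of the 5 root markers named above none was listed, with IBH1-Ox means from 33.2 to 77232, and their wild-type levels are not given by the deposited table. The part of a changed share of root tissue in these counts was not tested.

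Secreted proteins and wall enzymes made up more of the genes that rose, and these groups were likewise taken from annotation names. Of 15 CAP proteins, secreted proteins related to the defence protein PR-1, 6 rose and none fell. Of 35 mannose-binding and jacalin lectins 8 rose and none fell, led by AT1G33790, which rose from 260.3 and 249 normalized counts to 734 and 749.5. Of 164 genes matched as pectin-modifying 19 rose and 10 fell. This match took in genes annotated as invertase or pectin methylesterase inhibitors, which are not wall enzymes. Of 74 genes annotated as such inhibitors 8 rose and 3 fell. The polygalacturonases ADPG2 (AT2G41850, PGAZAT in the annotation) and ADPG1 (AT3G57510) are known for loosening cells at abscission and dehiscence sites. The former rose from 33.3 and 20.3 to 193 and 215, and the latter from 10.3 and 9.02 to 61.0 and 50.5. GH9B15 (AT4G23560), a glycosyl hydrolase of the endoglucanase family, rose from 78.6 and 66.5 to 624 and 588. Of 29 cysteine proteinases 5 rose and 1 fell. CP1 (AT4G36880) rose from 314 and 231 to 2141 and 2208, and AT1G29090 from 65.9 and 58.6 to 1059.8 and 1028. The groups were far apart in both. The berberine bridge enzyme-like gene AT5G44440 rose from 65.1 and 69.9 to 2082 and 2207, and stood at 101 and 145 in the double line.

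Among other annotated families, cytochrome P450 and lipid transfer protein genes moved in both directions. Of 223 cytochrome P450 genes 17 rose and 18 fell, and of 82 lipid transfer protein genes 9 rose and 10 fell. Of 144 NB-LRR resistance genes, which encode receptors of pathogen effectors, 7 rose and 13 fell. Of 84 late embryogenesis abundant protein genes 7 rose and none fell. PP2A (AT1G69960), a protein phosphatase catalytic subunit gene, fell from 4629 and 4103 normalized counts to 649.8 and 735 and stood at 571 and 607 in the double line. The thionin gene AT1G66100, of a class of small defence peptides, fell from 3019.9 and 2629.7 to 416 and 407. In both genes the double line stayed near the IBH1-Ox level or below it.

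Among growth hormone genes other than the families set aside, gibberellin genes had the most listed members. Of 25 gibberellin genes 3 rose and 4 fell. The synthesis gene GA20OX2 rose (0.74 ± 0.075) and the DELLA repressor gene GAI fell (-0.66 ± 0.015). GA20OX1, another synthesis gene, went the other way from GA20OX2, with a log2 ratio of -1.09 and means under 50. The GASA peptide genes split, with GASA4 at 0.74 and GASA6 at -1.18. Of 34 auxin genes 3 rose and 1 fell. GH3.3 (AT2G23170), an enzyme that conjugates auxin, rose from 146 and 139 normalized counts to 363 and 377, IAA29 had a log2 ratio of 1.1 ± 0.28 and the synthesis gene YUC3 had 0.65 ± 0.14. IAA3, a repressor of the response, had -0.69 ± 0.14. Of 15 brassinosteroid genes CYP90D1, a synthesis gene, was the member that differed (-0.61 ± 0.26). Its fold was under 1.5 without the shallower library of either group, and that of IAA3 without the shallower IBH1-Ox library. ACO4 (AT1G05010), an ethylene-forming oxidase, had -0.68 ± 0.069.

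Some regulators of light signalling and of chloroplasts fell. Of 30 shade and B-box genes 5 fell, with log2 ratios from -0.84 to -0.81, and none rose. They were the helix-loop-helix gene PAR2, the B-box genes BBX22, BBX24 and BBX28, and PIF4, a bHLH factor that drives elongation in warmth and shade. PIF4 (AT2G43010) stood at 1164 and 1184 normalized counts in wild type and at 673 and 667 in IBH1-Ox. Of 19 genes of chlorophyll synthesis and chloroplast regulation 3 fell and none rose. GLK1 (AT2G20570), a factor that activates photosynthesis genes, fell from 1579 and 1546 to 807 and 870.2. GLK2 had a log2 ratio of -0.59 ± 0.096 and the plastid sigma factor SIG5 had -0.72 ± 0.040. No enzyme of chlorophyll synthesis on the list was listed as different. Of 13 stomatal lineage genes 2 rose. These were TMM and POLAR, which both had log2 ratios of 0.63, and 1 of the pair kept a fold of at least 1.5 without the deeper or the shallower wild-type library or without the deeper IBH1-Ox library. HEC1 (AT5G67060), a bHLH gene known from carpel development, rose from 67.5 and 68.8 to 256 and 277.

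The largest differences of all were found in genes of another kind. Of the 44 genes that differed at least 16-fold, which are 0.178% of those tested, 13 rose and 31 fell. Their rank places IBH1, ICL, CYP79F1, IRT1, CYP82C4 and NAS2 among them, but 77.3% carried no gene symbol, 31.8% were annotated as uncharacterized and 29.5% were pseudogenes or other genes that do not code for protein. Among the other 1307 listed genes these shares were 53.2%, 7.19% and 2.83%. Of the 31 that fell the median of the means was 299 normalized counts in wild type and 1.51 in IBH1-Ox, so most were close to no reads.

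These genes were not spread evenly over the genome. Chromosome 3 held 22 of the 44 (50%), against 19.7% of the 17245 genes with a mean of at least 50 in the complete table. Chromosomes 1 and 2 held 3 and 2. AT3G47250, AT3G47290, AT3G47350 and AT3G47680, the 4 genes among the AT3G47 loci that differed at least 16-fold, all fell. Their locus numbers are not consecutive, so other loci lie between them. AT3G47250, a DUF247 gene, dropped from 2681 reads to 2. PLC8 (AT3G47290), a phospholipase C gene, stood at 566 and 619 normalized counts against 8.56 and 11.1, and HSD2 (AT3G47350), a hydroxysteroid dehydrogenase gene, at 433 and 451 against 4.28 and 3.69. In the stretch of AT3G28 loci the direction was mixed. AT3G28160 dropped from 748 reads to 1, whereas AT3G28310 stood at 2.38 and 3.38 against 121 and 117, and AT3G28320 had 3 reads and 1511. Off chromosome 3, neighbours AT5G51620 and AT5G51630 fell to 1 and 2 reads, from 275 and 813. The ratio for AT5G51630, a resistance gene, was 331, and its 95% counting interval ran from 91.2 to 2735. AT5G46490 and AT5G46510, resistance genes of the same TIR-NBS-LRR class, stood at 148 and 162, and at 306 and 292, in wild type, and at 6.42 and 7.38, and at 4.28 and 4.92, in IBH1-Ox. Why such genes lie together was not tested. Each group is a different line, so an effect of the transgene on these genes and any other inherited difference between the lines cannot be told apart.

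**Figure D5:**
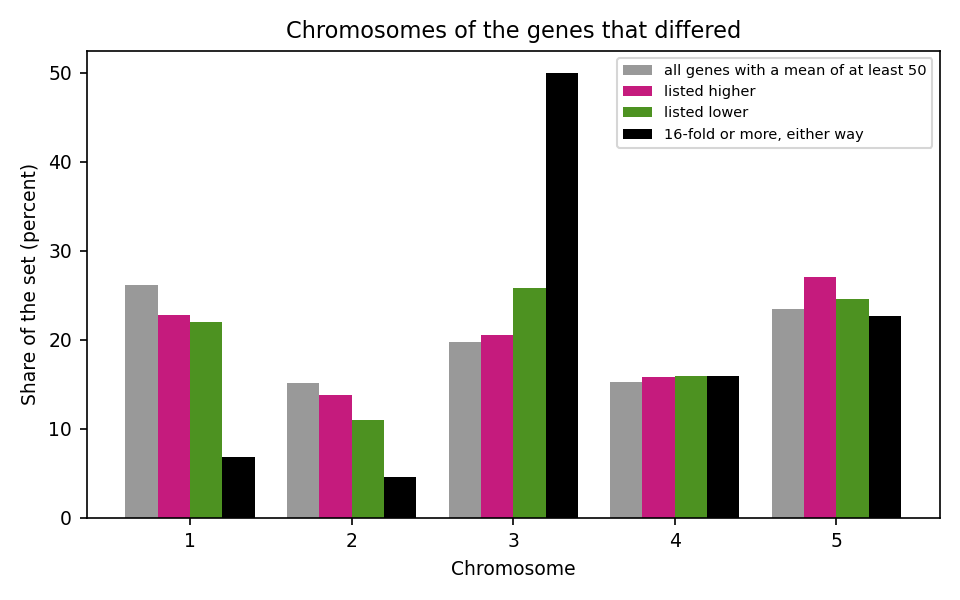
Share of each set of genes on chromosomes 1 to 5, in percent, for all genes with a mean of at least 50 normalized counts in the complete table, the listed genes that rose, those that fell, and the 44 that differed at least 16-fold. Chromosome 3 holds 50% of the 44 against 19.7% of all genes, and it holds 20.5% of the genes that rose and 25.8% of those that fell.

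Of the 31 genes that fell at least 16-fold, 20 were called higher in the double line than in IBH1-Ox. They had been chosen for low values in the same IBH1-Ox libraries, so this count supports nothing. Their median there was 18.22 normalized counts, against a wild-type median of 299 on the scale of the first table. Of the 12 genes besides IBH1 that rose at least 16-fold, 6 were called lower in the double line and 1 higher, with the same limit. Among all genes tested in that comparison, 12.7% were called higher and 9.78% lower. Single genes of the 31 differed in level. AT4G08110, a pseudogene that dropped from 281 reads to 1, was called higher, at 322 and 338 in the double line. AT3G01345, at 4209.6 and 4244 in wild type and 17.1 and 22.2 in IBH1-Ox, stayed at 15.8 and 20.7 and was not called. Its double-line mean, 18.22, was the median of the 31.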

How the data were processed

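RNA-seq libraries of whole seedlings were analysed as the authors' group means. TopHat and DESeq were used by the authors with the TAIR10 build, per the submitters' processing notes; versions and settings are not given in the sources used here. Group values are base means per the file headers, which is a signal: counts per gene over a library's size factor, averaged by the authors over a group. Beside them the authors deposited a fold, which is the ratio of those means, and its log2. They also deposited the p-value of their test and its adjusted form. Only listed genes (1547) are in the first table. The second, PRE1-Ox/IBH1-Ox against IBH1-Ox, holds 33518 genes and was normalized separately.

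Calls are the authors'; no count model was run. The number of genes tested in the first table (24779) was inferred from the ratio of adjusted p to p, which gives the true 24454 for the second. Each deposited mean was split into the whole reads of its libraries, within the rounding of 10 digits and a relative tolerance of 3e-11; 99.8% of wild-type and 99.9% of IBH1-Ox means in the first table gave 1 pair of reads. This step was tested on simulated data. Reads of IBH1-Ox libraries came out equal from either table for 1546 of 1546 genes. The chi-square between libraries, over listed genes with 20 reads or more, averaged 3.68 in wild type and 2.89 in IBH1-Ox. Its medians were 0.911 and 0.767. These values cannot tell separate samples from technical repeats. Each library was counted as a sample because the labels list it as one. Normalized counts per library are reads over the authors' size factors. The SE of a log2 ratio combines the library variances of both groups, and ratios with 3 reads or fewer have exact Clopper-Pearson intervals (95%). Levels were not divided by gene length and are compared between groups, not between genes.

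The members, the 29 lists and the 35 families matched in RefSeq annotation names were chosen with earlier results of these data known. Of the families, 10 were added after values had been seen: root hair specific, CAP, lectin, Casparian strip, terpenoid cyclase, inhibitor, late embryogenesis, cysteine proteinase, C1 domain and bHLH. Named genes were IBH1 and PRE1, the 12 highest and 12 lowest log2 ratios, the same among genes with both means at least 50, the 10 highest means in each direction, and up to 5 members per list or family. The other listed members of the lists, those under 50 included, and all genes at 16-fold or more were added after values had been seen. Gene names and promoters are from RefSeq TAIR10.1, matched by locus for 1539 of 1547 genes. Work used Python 3.11.15, numpy 2.4.6, pandas 2.3.3 and scipy 1.17.1. Alternatives were other limits on the mean, an adjusted p below 0.01, a 2-fold limit, pseudocounts of 1 and 10, and leaving out each library.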

Additional observations from a re-analysis of the deposited data

How the results depend on the processing

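No paired analysis was possible because the deposited columns hold group means and carry no replicate numbers. The counts of genes that rose and fell moved to 373 and 430 with a mean of at least 200, and to 246 and 296 with a 2-fold limit. The other limits on the mean and an adjusted p below 0.01 kept them within 1.5 times. Leaving out each library in turn, with a fold of at least 1.5 required in the rest, left 621 to 648 genes higher and 601 to 623 lower. The aliphatic glucosinolate count was then 16 to 18, the iron count 7 and the glyoxylate count 5; at 2-fold the glyoxylate count was 2. Counts of gene lists moved under 44 of 248 alternatives, many of them at the 2-fold limit, since many members differed less than 2-fold. Of 1658 alternatives for the log2 ratios of 280 named genes, 0 reversed and 169 moved by more than the spread between libraries. The groups did not overlap in any of the 1348 kept genes that were read back. Leaving out a library or adding a pseudocount could therefore not reverse a ratio there, and the 0 supports nothing. Recomputing the test itself was not possible without every wild-type gene, so these counts rest on the authors' adjusted p. With 2 libraries a group, and 1 to 3 reads in a group of many genes past 16-fold, depth limits those ratios.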
